A study of Mus musculus with 12 samples.

Results

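The genes described here are 9 genes of the piRNA pathway and of germ granules, out of 24054 genes in each expression table: Dazl, Ddx4, Mael, Tdrd1, Tdrd9, Piwil2, Mov10l1, Asz1 and Gtsf1. They were chosen by name, as the rows of the 12 tables that carry these symbols, and all 9 had a row. Their levels were followed in 4 groups of 3 libraries each from mouse fetal liver at E13.5, sorted from LSK cells, the lineage-negative, Sca-1 and Kit positive fraction that holds early blood cells. LT-HSC, long-term haematopoietic stem cells, were CD150+ and CD48-, and MPP, multipotent progenitors, were CD150- and CD48+. Each LT-HSC library came from 500 to 1000 sorted cells and each MPP library from 20000, with 10 ng of input RNA for all. Between LT-HSC and MPP, cell type and number of sorted cells therefore cannot be told apart. The mutants were Setdb1 p/p;vav-cre in both cell types. Setdb1 encodes a methyltransferase of lysine 9 of histone H3, and vav-cre expresses Cre recombinase in blood cells. The genotype Setdb1 +/p;+/+, with no Cre transgene, was that of 1 LT-HSC control (replicate 1) and of 2 MPP controls (replicates 1 and 2). The remaining controls, replicates 2 and 3 of LT-HSC and replicate 3 of MPP, had the genotype Setdb1 +/p;vav-cre. All controls thus carried 1 p allele, which the labels do not define, and most of the MPP controls lacked the transgene that every mutant carried. The question was which of these germline genes stayed silent in blood stem and progenitor cells and which were higher in the mutants.

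piRNAs are small RNAs that guide PIWI proteins to transposon transcripts in germ cells, where they direct cutting of the RNA and methylation of the DNA. Much of this machinery sits in germ granules, RNA-rich bodies beside the nucleus and the mitochondria whose scaffolds are proteins with Tudor domains. Its genes are transcribed mainly in the germ line, and in somatic cells many of them are held silent by DNA methylation and by repressor complexes bound at their promoters.

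Total expected counts per library lay between 10119416 and 14113198. Levels are given as CPM, the counts of a gene scaled to 1e6 counts per library. Where a group was at 0, a floor of 3 counts over its 3 libraries was used, which came to between 0.0762 and 0.0864 CPM. All of 12 LSK marker genes were detected in every library. Most markers of hepatoblasts and macrophages, other cells of fetal liver, were detected as well, so detection alone does not check the identity of the sort. Primordial germ cell markers summed to only 1.89 to 4.13 CPM, with Sox2, Prdm14 and Tfap2c at 0 counts in all 12 libraries, and the 1 marker of this list that was tested, Dnd1, was not called in any comparison. Setdb1 itself is not a check of the genotype here, since its counts overlapped between mutants and controls in both cell types. In bulk samples, fewer cells that express a gene and less RNA per cell cannot be told apart.

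The stretches before the annotated spans of 6 members are shown first. Of these members, Dazl, Tdrd9 and Gtsf1 were called higher in mutant MPP, Mael was detected in mutants and not in controls, and Mov10l1 and Asz1 stayed silent. The stretches come from RefSeq on GRCm38.p6, run 5′ to 3′ on the strand of the gene and end at the base before its annotated span. Their positions are chr17:50293621-50293870 (minus strand) for Dazl, chr12:111971309-111971487 (plus) for Tdrd9, chr15:103430446-103430677 (minus) for Gtsf1, chr1:166238745-166238994 (minus) for Mael, chr15:88982744-88982890 (plus) for Mov10l1 and chr6:18109062-18109311 (minus) for Asz1. Capitals mark matches to 2 motifs of repressors of germline genes, the E-box CACGTG, which MGA and MAX bind and which reads the same on both strands, and the E2F6 motif GCGGGA, which reads TCCCGC on the other strand.
Dazl: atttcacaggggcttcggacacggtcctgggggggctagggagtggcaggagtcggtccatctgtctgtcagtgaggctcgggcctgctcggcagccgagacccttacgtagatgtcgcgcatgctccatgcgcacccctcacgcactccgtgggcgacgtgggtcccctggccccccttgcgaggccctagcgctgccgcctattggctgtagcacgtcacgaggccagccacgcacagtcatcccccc
Tdrd9: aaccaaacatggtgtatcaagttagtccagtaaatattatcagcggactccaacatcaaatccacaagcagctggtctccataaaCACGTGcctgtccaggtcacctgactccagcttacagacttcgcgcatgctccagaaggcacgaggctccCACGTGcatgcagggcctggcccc
Gtsf1: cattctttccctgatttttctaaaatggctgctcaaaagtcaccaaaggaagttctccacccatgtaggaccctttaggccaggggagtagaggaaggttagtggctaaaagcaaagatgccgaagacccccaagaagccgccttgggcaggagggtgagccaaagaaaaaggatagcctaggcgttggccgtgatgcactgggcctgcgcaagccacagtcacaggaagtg
Mael: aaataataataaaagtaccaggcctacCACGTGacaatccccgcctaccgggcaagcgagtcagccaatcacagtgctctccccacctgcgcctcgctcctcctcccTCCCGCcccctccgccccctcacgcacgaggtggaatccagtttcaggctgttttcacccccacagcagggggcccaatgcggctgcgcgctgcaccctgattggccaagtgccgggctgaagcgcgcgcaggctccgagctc
Mov10l1: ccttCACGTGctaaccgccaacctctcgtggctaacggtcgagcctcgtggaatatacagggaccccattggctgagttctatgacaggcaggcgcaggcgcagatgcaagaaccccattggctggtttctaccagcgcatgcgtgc
Asz1: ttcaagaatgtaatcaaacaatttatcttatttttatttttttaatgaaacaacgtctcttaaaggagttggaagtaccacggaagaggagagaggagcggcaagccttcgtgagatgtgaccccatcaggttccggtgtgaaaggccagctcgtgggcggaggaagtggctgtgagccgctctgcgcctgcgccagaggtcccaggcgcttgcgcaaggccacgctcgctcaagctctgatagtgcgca

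In these stretches Tdrd9 held 2 E-boxes, Mael 1 E-box and 1 E2F6 motif on the reverse strand, and Mov10l1 1 E-box. Those of Dazl, Gtsf1 and Asz1 held neither motif. The full windows are the 250 bases before the start of each promoter entry. They can reach into the annotated span of the gene, and that of Ddx4 lay wholly inside it. In these windows 5 of the 8 members with an entry held an E-box (Ddx4, Mael, Tdrd1, Tdrd9 and Mov10l1), against 6.02% of all 32841 promoter windows. The E-box was found in 9.09% of the 15210 windows with at least as many CpG dinucleotides as the member with fewest. Ddx4 and Mael held the E2F6 motif, which 16.9% of all windows held. Piwil2 had no entry. A match is a string of letters, and binding was not measured.

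CpG dinucleotides are the sites that DNA methylation acts on. Ddx4 had 31 of them in the full window of 250 bases, Dazl 20, Mov10l1 19, Mael 18, Asz1 15, Tdrd9 8 and Gtsf1 7. In the part of the window before the annotated span, Mov10l1 had 10, Tdrd9 6 and Gtsf1 5. Tdrd1 has 3 annotated starts, with 11, 22 and 3. The median over all windows was 6 and the middle 50% ran from 2 to 16. The members that were called higher in mutant MPP thus had both a CpG-rich stretch (Dazl) and stretches close to the median (Tdrd9 and Gtsf1), and the silent Mov10l1 and Asz1 had 19 and 15.

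**Figure D1:**
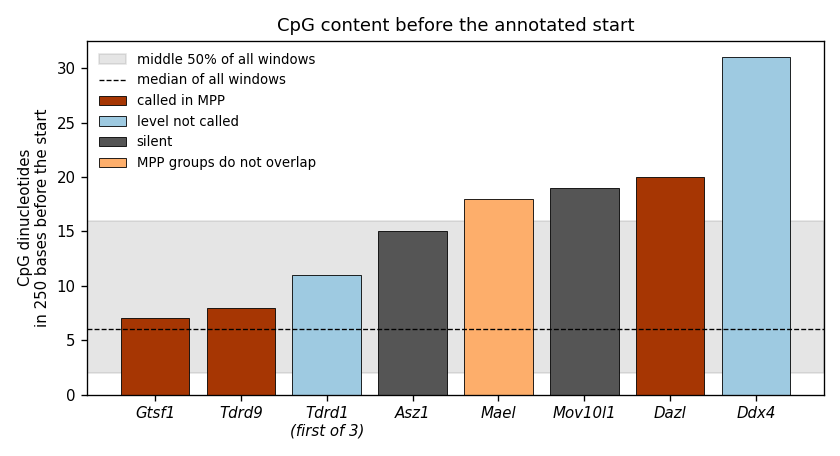
CpG dinucleotides in the 250 bases before the start of the promoter entry (bars, linear axis from 0) for the 8 members with an entry, with the median (dashed line) and middle 50% (grey band) of all promoter windows. A window can reach into the annotated span of its gene, and that of Ddx4 lies inside it. Tdrd1 is drawn for the first of its 3 starts. Members called in MPP stand at 7, 8 and 20, and the silent ones at 15 and 19.

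Asz1 and Mov10l1 stayed silent, where silent means a mean under 0.5 CPM in all 4 groups. Asz1 encodes a protein of the germ granules that lie on mitochondria. It had 0 counts in all 12 libraries, which allows a group level of up to 0.0762 to 0.0864 CPM at these depths. Mov10l1 encodes the RNA helicase that feeds precursors into piRNA production. It had 3 counts in MPP mutant 2 and 0 counts in each of the other 11 libraries.

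Ddx4, Tdrd1 and Piwil2 were transcribed in controls and were not called between genotypes. Ddx4 encodes the DEAD-box RNA helicase also known as mouse Vasa homologue, a defining protein of germ granules, and it was by far the highest member. Its level was 39.4, 37.7 and 34.8 CPM in LT-HSC controls 1 to 3 and 50.4, 39.1 and 33.8 CPM in LT-HSC mutants. In MPP it was 36.4, 25.2 and 38.1 CPM in controls and 33.1, 58.6 and 35.6 CPM in mutants. The genotypes overlapped in both cell types, and every library lay above 25 CPM. The log2 fold change, mutant over control, was 0.18 (SE 0.17, adjusted p = 0.802) in LT-HSC and 0.33 (SE 0.216, adjusted p = 0.265) in MPP by edgeR's quasi-likelihood test, with Benjamini-Hochberg adjustment over all genes tested. The 95% intervals of these changes were -0.22 to 0.57 and -0.15 to 0.80, so a change by a factor of 2 or more, 1 on the log2 scale, lay outside both. Per transcript length, Ddx4 stood at 20.4 to 27.2 TPM (transcript abundance per length, scaled to the same total) as group means, above every other member in every group.

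Tdrd1, a germ granule scaffold with several Tudor domains that binds methylated PIWI proteins, was low and uneven within groups. LT-HSC controls had 0.462, 4.35 and 2.11 CPM, and LT-HSC mutants had 0.329, 2.11 and 1.62 CPM. MPP controls had 0.540, 0.831 and 1.74 CPM and MPP mutants 0.552, 1.63 and 0.508 CPM. Low and high libraries occurred in every group, and all groups overlapped. The log2 fold change was -0.72 in LT-HSC (SE 0.881, adjusted p = 0.845) and -0.23 in MPP (SE 0.556, adjusted p = 0.776).

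Piwil2, the only PIWI protein among the members, also called MILI, binds piRNAs and cuts transposon transcripts. Its level was higher in MPP than in LT-HSC controls, which also came from fewer sorted cells. LT-HSC controls had 0.792, 0.737 and 0 CPM and LT-HSC mutants 0.329, 2.69 and 1.25 CPM. MPP controls had 4.09, 3.24 and 3.22 CPM and MPP mutants 4.14, 3.18 and 3.73 CPM. Every MPP library lay above every LT-HSC library of either genotype, and the MPP genotypes overlapped. In controls the log2 difference of MPP over LT-HSC was 2.73 (SE 0.642, 95% interval 1.30 to 4.16, edgeR adjusted p = 0.00769). In mutants it was 1.32 (SE 0.632, 95% interval -0.16 to 2.81) and was not called (edgeR adjusted p = 0.162). Of the 3 members tested between the control cell types, Piwil2 was the 1 called, where 38.5% of all genes tested were called and 18.0% were called higher in MPP. It passed the filter on low counts only through the MPP libraries, so this count is not read as support. Between genotypes the log2 fold change was 1.49 in LT-HSC (SE 1.07, adjusted p = 0.711) and 0.04 in MPP (SE 0.235, adjusted p = 0.915). Piwil1 and Piwil4, which encode the other mouse PIWI proteins, had 0 counts in all 12 libraries.

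**Figure D2:**
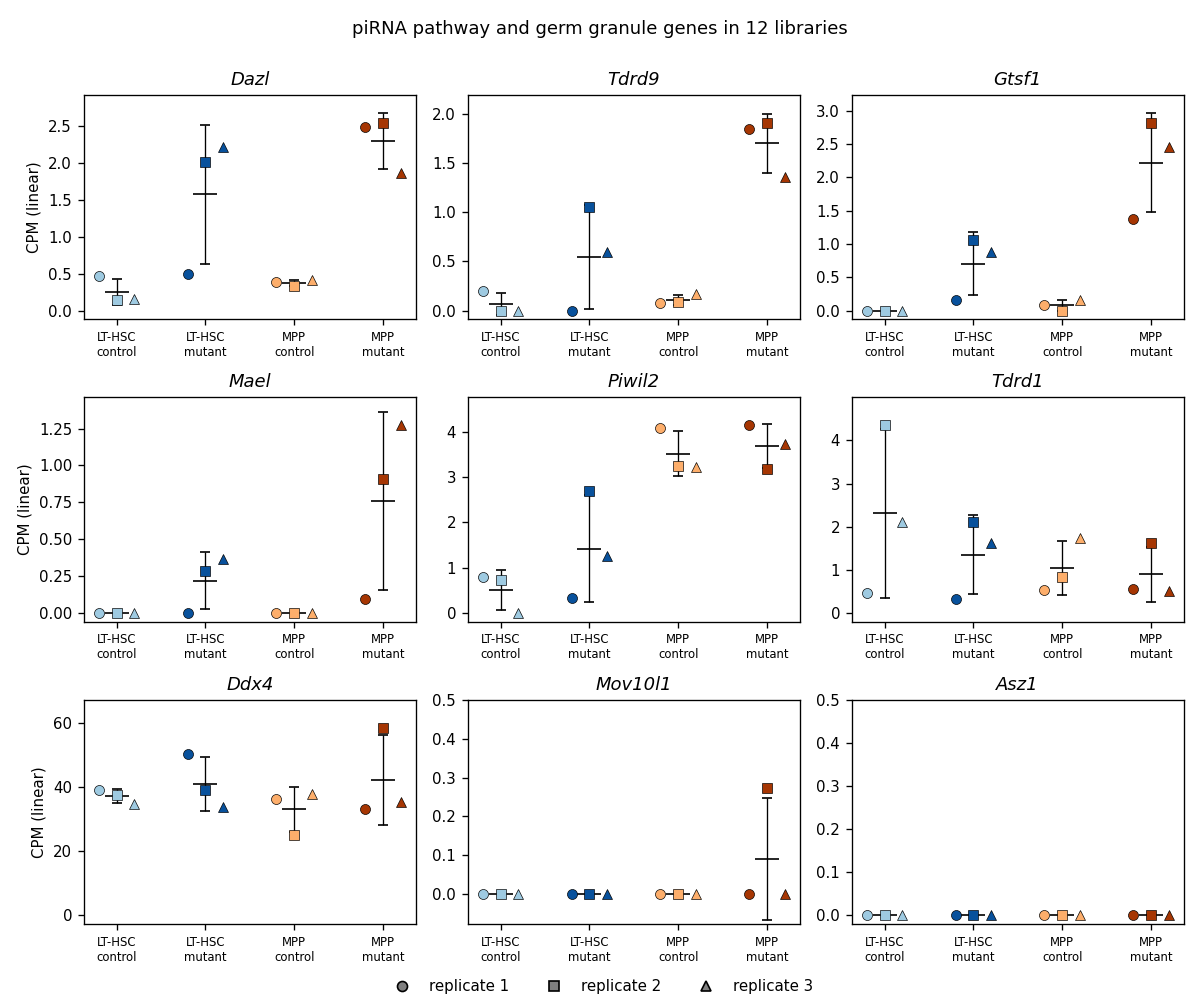
Level of the 9 members in CPM on linear axes that differ in range. Each point is 1 library of the 3 in a group, and the bars are the mean and SD. In mutant MPP, Dazl, Tdrd9, Gtsf1 and Mael lie above every MPP control library, the MPP points of Piwil2 lie above its LT-HSC points, Ddx4 stays above 25 CPM, and Asz1 is at 0.

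In MPP, Dazl, Tdrd9 and Gtsf1 were higher in mutants than in controls, from near the detection limit to between 1.36 and 2.81 CPM in single libraries. They were 3 of the 6 members tested, beside 35.0% of all 12392 genes called in that comparison, 16.5% higher and 18.5% lower. These 3 passed the filter on low counts only through the mutant libraries, so they had to differ to be tested, and their number was not read as support. Without the filter, 8 members were tested and 4 were called higher (these 3 and Mael), beside 13.0% of all genes called higher. DESeq2 also called 3 with the filter. In 4 of the 9 members (Dazl, Tdrd9, Gtsf1 and Mael) every MPP mutant lay above every MPP control, beside 26.6% of the genes that passed the filter. Mael did not pass it and the other 3 passed only through the mutants, so this count is not read as support either. A joint fit of all 12 libraries called 3 as well (adjusted p 0.00572 to 0.0187). The same kind of fit with only the controls that carry vav-cre, and so 1 MPP control, called 0 members, with log2 fold changes of 2.38 for Dazl, 3.22 for Tdrd9 and 3.60 for Gtsf1 and adjusted p of 0.209 to 0.348.

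Dazl encodes an RNA-binding protein that controls translation in germ cells. Its count was 5, 4 and 5 in MPP controls and 27, 28 and 22 in MPP mutants, or 0.386, 0.332 and 0.413 CPM against 2.48, 2.54 and 1.86 CPM. All 3 mutants lay above all 3 controls, and the libraries within a group differed little. The log2 fold change was 2.54 (SE 0.36, 95% interval 1.75 to 3.33, edgeR adjusted p = 0.000301). The ratio of the counts, scaled for depth, was 6.06 with a counting interval of 3.40 to 11.6. MPP control 3, the control with vav-cre, was the highest MPP control in CPM here, by a small margin, and also in Tdrd9 and Gtsf1 below. An effect of the transgene alone was not tested.

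Tdrd9 encodes an RNA helicase with a Tudor domain that acts in piRNA-directed transposon silencing. Its count was 1, 1 and 2 in MPP controls and 20, 21 and 16 in MPP mutants, or 0.0771, 0.0831 and 0.165 CPM against 1.84, 1.91 and 1.36 CPM. The groups did not overlap. The log2 fold change was 3.82 (SE 0.506, 95% interval 2.71 to 4.94, adjusted p = 0.000173), and the count ratio was 15.7 (5.80 to 59.6).

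Gtsf1 encodes a small zinc finger protein that works with PIWI proteins. It had 1, 0 and 2 counts in MPP controls and 15, 31 and 29 in MPP mutants, or 0.0771, 0 and 0.165 CPM against 1.38, 2.81 and 2.46 CPM. The mutants were all above the controls, with mutant 1 the lowest of them. The log2 fold change was 4.58 (SE 0.632, 95% interval 3.20 to 5.97, adjusted p = 0.000223), and the count ratio was 27.5 with a wide interval of 9.07 to 137, since the controls summed to 3 counts. Per transcript length Gtsf1 reached 5.75 ± 1.79 TPM (SD, n = 3) in MPP mutants, next below Ddx4 at 23.3 ± 6.90 TPM. Dazl was at 1.21 ± 0.211 TPM, Piwil2 at 1.14 ± 0.190 TPM, Mael at 0.790 ± 0.629 TPM, Tdrd9 at 0.540 ± 0.104 TPM and Tdrd1 at 0.277 ± 0.185 TPM. From Dazl down to Tdrd1, no gene differed from the next in this order beyond the spread.

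Mael encodes Maelstrom, a protein of germ granules needed for transposon silencing. It had 0 counts in all 6 control libraries, 1, 10 and 15 counts in MPP mutants and 0, 3 and 5 counts in LT-HSC mutants. Mutant 1 was the lowest in both cell types. Against the floor of 3 counts over the group, Mael was at least 9.54-fold higher in mutant MPP and at least 3.10-fold higher in mutant LT-HSC. The lower limits of the exact 95% counting intervals were smaller, 7.22 and 1.98, and LT-HSC mutant 1 had no count. The filter removed it from both tests. Without the filter it was called in MPP (edgeR adjusted p = 0.00504) and not in LT-HSC (adjusted p = 0.577).

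**Figure D3:**
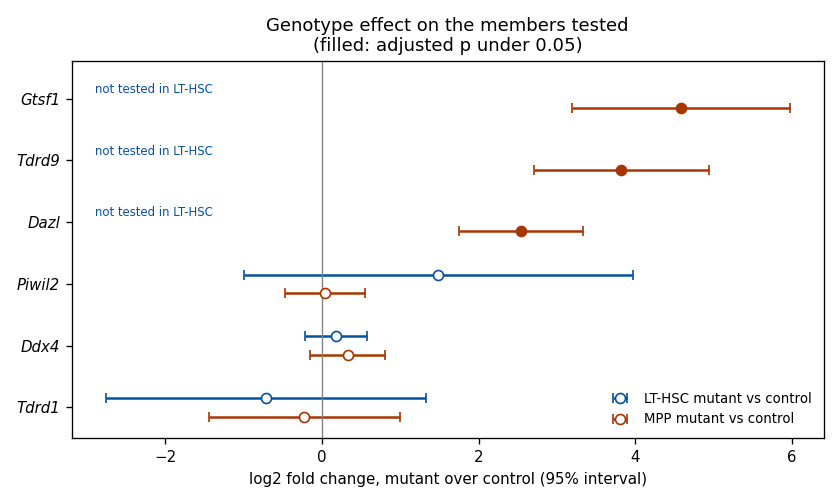
Log2 fold change, mutant over control, of the 6 members that were tested in at least 1 cell type, with 95% intervals. Filled points have an adjusted p under 0.05. Gtsf1, Tdrd9 and Dazl lie between 2.54 and 4.58 in MPP, and the intervals of Piwil2, Ddx4 and Tdrd1 include 0 in both cell types.

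In LT-HSC, no member was called: 3 of 9 were tested (Ddx4, Tdrd1 and Piwil2), and 0 passed by edgeR, 0 at an unadjusted p under 0.05 and 0 by DESeq2. Among all 12847 genes tested, 0.420% were called, 0.257% higher, and 9.50% had an unadjusted p under 0.05. Dazl had 7, 2 and 2 counts in LT-HSC controls and 6, 21 and 30 in mutants, or 0.462, 0.147 and 0.151 CPM against 0.494, 2.01 and 2.21 CPM. Mutant 1 stood at the level of control 1, and mutants 2 and 3 stood above all controls. The count ratio was 6.02 (3.13 to 12.7), a value near that in MPP.

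Gtsf1 had 0 counts in all LT-HSC controls and 2, 11 and 12 in mutants, and was at least 9.68-fold higher against the floor of 3 counts over the group, with a lower limit of 7.31 by the counting interval. Tdrd9 had 3, 0 and 0 counts in controls and 0, 11 and 8 in mutants, a ratio of 7.36 with an interval of 2.17 to 38.8. Dazl and Gtsf1 did not overlap between the genotypes, whereas Tdrd9 and Mael overlapped. For Dazl this rested on 0.494 CPM in mutant 1 against 0.462 CPM in control 1. Of the genes that passed the filter, 6.89% did not overlap in that direction, but Dazl and Gtsf1 did not pass it, so that share does not cover them. Without the filter, 7 members were tested and 0 were called, beside 0.258% of genes called higher. Dazl (edgeR adjusted p = 0.37) and Gtsf1 (edgeR adjusted p = 0.271) had an unadjusted p under 0.05. The share of all genes at that level without the filter is not given, so nothing is read from these 2.

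LT-HSC mutant 1 was the lowest of the 3 LT-HSC mutants in 6 members and the highest in 1, Ddx4. Its total, 11536129 counts, lay between those of the other mutants. In MPP, mutant 2 was the highest of the mutants in 6 members.

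The change from control to mutant was not called as different between LT-HSC and MPP. Of the 6 members tested for that interaction, 0 passed by edgeR, 0 at an unadjusted p under 0.05 and 0 by DESeq2, beside 0.377% of all genes called and 12.4% at an unadjusted p under 0.05. For Dazl the difference in log2 fold change, MPP minus LT-HSC, was 0.01 (SE 0.88) with a 95% interval of -1.90 to 1.93. For Tdrd9 it was 1.09 (SE 1.82, adjusted p = 0.897) with an interval of -2.87 to 5.06, so differences of several fold in either direction lay inside it. Among the mutants alone, 6 members were tested between MPP and LT-HSC and 0 were called, beside 22.8% of all genes. Gtsf1 had an unadjusted p under 0.05 (log2 difference 1.59, SE 0.624, edgeR adjusted p = 0.103), as had 39.2% of all genes, and DESeq2 called 0. Tdrd9, Piwil2 and Gtsf1 were higher in every mutant MPP library than in every mutant LT-HSC library, as were 25.6% of the genes tested.

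Marker genes of hepatoblasts and macrophages, which also occur in fetal liver, were in part called lower in mutant MPP, where the called members were higher. Hepatoblast markers summed to 290 to 591 CPM in MPP controls and 109 to 139 CPM in MPP mutants, with 6 of 13 tested called lower. Macrophage markers summed to 1383 to 2002 CPM in MPP controls and 336 to 473 CPM in mutants, with 10 of 11 called lower. Lyz2 was the highest of them in every group, with means of 995 CPM in MPP controls and 263 CPM in MPP mutants, so it weighs most in these sums. Among all genes 18.5% were called lower. Of the 12 LSK markers, 7 were called lower in mutant MPP, such as Ly6a (log2 fold change -1.07), and 0 higher. In LT-HSC none of these lists had a called gene by edgeR, with 8 hepatoblast, 2 macrophage and 2 LSK markers at an unadjusted p under 0.05 (9.50% of all genes) and 2, 0 and 0 called by DESeq2. The shift in hepatoblast markers was nonetheless large there, from sums of 561 to 1813 CPM in controls to 104 to 490 CPM in mutants, with a median log2 fold change of -2.40 against -1.85 in MPP. Macrophage markers summed to 1034 to 1326 CPM in LT-HSC controls and 565 to 1290 CPM in mutants. The part of this shift in the levels of the members was not tested. Primordial germ cell markers summed to 1.99 to 3.47 CPM in MPP controls and 2.72 to 3.47 CPM in MPP mutants, mostly Dnd1 and Nanos3.

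Other genes of the piRNA pathway also included silent ones, ones not called and ones higher in mutant MPP. Of 20 genes listed, 19 had a row and 9 were tested in MPP. There 4 were called higher and 1 lower, beside 16.5% and 18.5% of all genes. Tex15 and Tdrd5 passed the filter only through the mutant libraries, so this count is not read as support. Without the filter, 17 were tested and 7 were called higher, beside 13.0% of all genes. Rnf17, a Tudor protein of germ cells that binds PIWI proteins, was already transcribed in controls. It stood at 8.41, 8.14 and 4.30 CPM in MPP controls and 22.7, 72.8 and 58.5 CPM in mutants (log2 fold change 2.85, SE 0.382, adjusted p = 0.000231). Tdrkh, a mitochondrial Tudor protein that takes part in trimming piRNAs, was at 26.4, 30.9 and 31.2 CPM in controls and 48.0, 60.8 and 55.3 CPM in mutants (0.86, SE 0.122, adjusted p = 0.000324). Both genes had mutants above all controls.

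Tex15, which acts in piRNA-directed DNA methylation, went from 0.309, 0.665 and 0.413 CPM in MPP controls to 3.31, 29.2 and 24.6 CPM in mutants, with mutant 1 far below the other 2. Its log2 fold change was 5.32 (SE 0.779, adjusted p = 0.000386). Tdrd5, another Tudor protein of germ granules, had 0, 4 and 5 counts in MPP controls and 21, 47 and 43 in mutants (3.67, SE 0.582, adjusted p = 0.000612). Pld6, a mitochondrial nuclease of piRNA production also expressed in many tissues, was the 1 gene lower (-0.72, SE 0.214, adjusted p = 0.0221). It is named because it was the only one lower, after its values were seen, and its call was lost with the replicate number as a block (adjusted p = 0.0532) and without any 1 of MPP controls 2 and 3 and mutants 2 and 3 (adjusted p 0.0664 to 0.0916).

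In LT-HSC, 8 of these genes were tested and 0 were called by edgeR, but 3 had an unadjusted p under 0.05, as had 9.50% of all genes, and DESeq2 called 3. By edgeR these 3 were Tex15 (log2 fold change 4.04, SE 0.788, adjusted p = 0.124), Tdrkh (0.81, SE 0.176, adjusted p = 0.161) and Rnf17 (1.41, SE 0.361, adjusted p = 0.249). Each of them was higher in all 3 LT-HSC mutants than in all 3 controls, as were 6.89% of all genes tested. Stk31, a Tudor kinase-like protein of germ granules chosen after its values were seen, was too low for the test in either cell type, with 1, 0 and 0 counts in MPP controls and 3, 18 and 20 in mutants.

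**Figure D4:**
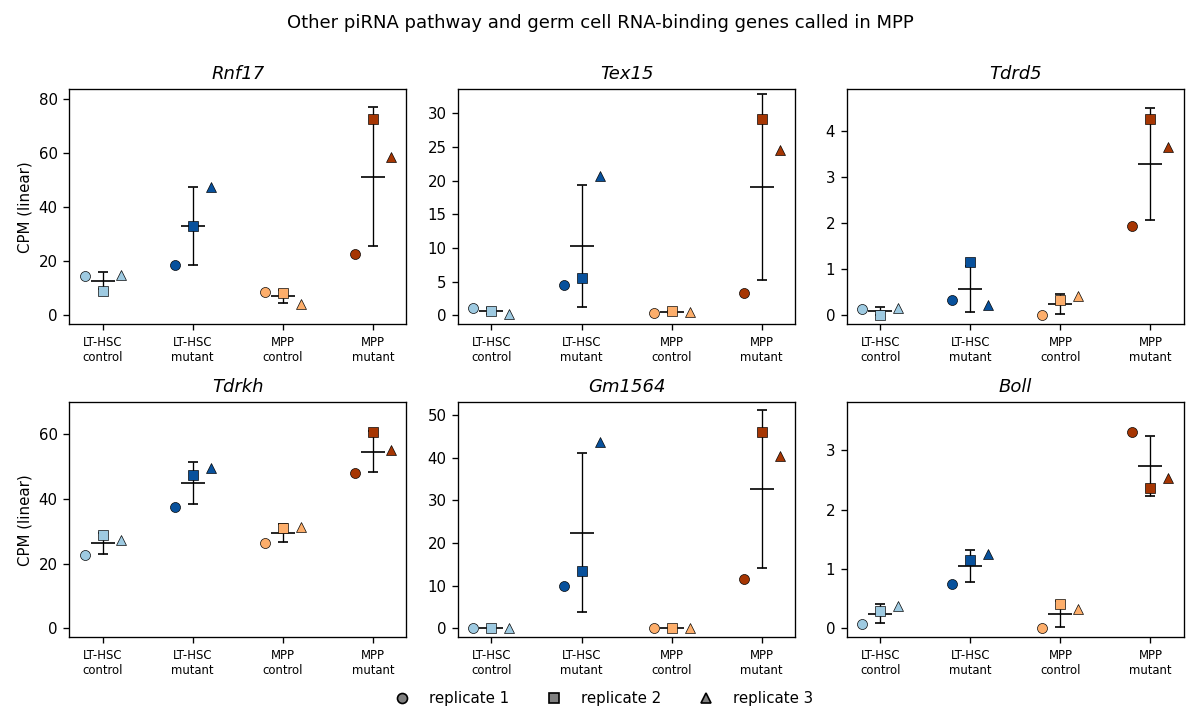
Level in CPM, on linear axes that differ in range, of 4 other piRNA pathway genes (Rnf17, Tex15, Tdrd5, Tdrkh) and 2 germ cell RNA-binding genes (Gm1564, Boll) called higher in mutant MPP. Each point is 1 library of 3, and the bars are the mean and SD. Every MPP mutant library lies above every MPP control library, and MPP mutant 1 is lowest in Rnf17, Tex15, Tdrd5, Tdrkh and Gm1564.

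Among 13 other germ cell RNA-binding genes, 5 were tested in MPP and 3 were called higher, beside 16.5% of all genes. Of these, Gm1564 and Boll passed the filter only through the mutants, and the count is not read as support. Gm1564, also named Meioc, which keeps germ cells in meiosis, had 2, 0 and 1 counts in MPP controls and 125, 508 and 477 in mutants (log2 fold change 8.46, SE 0.774, adjusted p = 1.82e-05). Boll, a relative of Dazl, had 0, 5 and 4 counts in controls and 36, 26 and 30 in mutants (3.41, SE 0.541, adjusted p = 0.000611). Ythdc2, an RNA helicase that partners with Meioc and is broadly expressed, rose from 14.9 ± 1.47 to 25.2 ± 1.88 CPM (0.73, SE 0.135, adjusted p = 0.00178). In LT-HSC, 6 were tested and 1 was called, Gm1564, at 0 counts in all controls and 120, 141 and 594 in mutants (edgeR adjusted p = 0.0456). That call was lost without any 1 of LT-HSC controls 1, 2 and 3 and mutants 1 and 2 (adjusted p 0.0603 to 0.159).

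Broadly expressed partners of the pathway were detected in every library. Of 10, 5 were called in MPP, 4 higher and 1 lower, beside 35.0% of all genes called, 16.5% higher and 18.5% lower. Ago2, which binds small RNAs outside the germ line, rose from 40.8 ± 4.29 to 69.0 ± 3.63 CPM (SD, n = 3; log2 fold change 0.73, SE 0.108, adjusted p = 0.000412), and its call was lost in a joint fit of the 12 libraries (adjusted p = 0.0957). Mov10, the somatic relative of Mov10l1, fell from 128 ± 6.59 to 83.3 ± 13.7 CPM (-0.65, SE 0.117, adjusted p = 0.00149). Ddx39, an mRNA export helicase, changed by 0.66 and Hsp90aa1, a chaperone, by 0.42 on the log2 scale (adjusted p = 0.000525 and 0.0197). None was called in LT-HSC by edgeR or DESeq2, and 2 had an unadjusted p under 0.05.

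Of 24 genes for repressors that act on germline genes, all detected in every library, 9 were called in MPP, 6 higher and 3 lower. This share is close to the 35.0% called among all genes, and nothing about the list is read from it. Dnmt3a, a DNA methyltransferase, fell from 269 ± 12.4 to 151 ± 26.5 CPM (log2 fold change -0.86, SE 0.12, adjusted p = 0.000294). Mga, whose protein binds the E-box shown above, rose from 150.2 ± 14.5 to 207 ± 17.8 CPM (0.43, SE 0.103, adjusted p = 0.00718). Pcgf6 and Ring1, of the same repressor complex, changed by 0.41 (adjusted p = 0.0148) and 0.59 (adjusted p = 0.0174). Other genes of the list went both ways. In MPP, Atf7ip rose from a mean of 180 to 256 CPM, Tfdp1 from 354 to 444 CPM and Wdr5 from 136 to 173 CPM. Rnf2 went from 134 ± 8.07 to 112 ± 8.87 CPM in MPP, and E2f6, Max and L3mbtl2 overlapped between the MPP genotypes. The count of 9 rested on the MPP mutants: it was 4 without mutant 2, 2 without mutant 3 and 3 in the joint fit, where Pcgf6 and Ring1 were not called. In LT-HSC 0 were called by edgeR and by DESeq2, and 1 had an unadjusted p under 0.05.

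Of the genes that flank the called members on GRCm38, Rftn1, Plcl2, Itga5 and 2010107E04Rik were tested in MPP. Of these, 1 was itself called, beside 35.0% of all genes tested, and nothing about the loci is read from it. Dazl (chr17:50279393-50293620) lies between Rftn1 and Plcl2, and neither was called in MPP (log2 fold change 0.16, adjusted p = 0.287, and -0.11, adjusted p = 0.609). Gtsf1 (chr15:103402458-103430445) lies between Itga5, not called (-0.19, adjusted p = 0.299), and BC048502 (Gtsf2), which had 1 count in all 12 libraries together. Beside Tdrd9 (chr12:111971488-112068854), 2010107E04Rik, 4478 bases away, rose from 84.4 ± 6.60 to 114 ± 11.2 CPM (0.41, SE 0.0996, adjusted p = 0.0088), and Aspg and the overlapping Rd3l were at 0 counts throughout. A630007B06Rik, 3971 bases from Tdrd1, rose in mutant MPP (0.92, SE 0.158, adjusted p = 0.00111) while Tdrd1 was not called. Cftr, 61625 bases from the silent Asz1, had 0 counts in MPP controls and 6, 6 and 13 in MPP mutants, and 3 to 20 counts in LT-HSC controls.

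The genes whose log2 CPM followed the 3 called members most closely over the 12 libraries were named by Pearson's r, as a description over libraries that share their groups. For Dazl they were B3gnt7 (r = 0.946), Srp54b (0.944) and Grhl2 (0.94). For Tdrd9 they were Grhl2 (0.958), Pusl1 (0.951) and Prps1l3 (0.948), and for Gtsf1 they were Grhl2 (0.976), Psmd7 (0.963) and Gm10532 (0.959). Grhl2, which encodes an epithelial transcription factor, was among the 3 for each member. It had 0 counts in LT-HSC controls, 0.844 ± 0.670 CPM in LT-HSC mutants, 0.0533 ± 0.0462 CPM in MPP controls and 4.56 ± 0.679 CPM in MPP mutants (SD, n = 3). Psmd7, a proteasome subunit, was in contrast high everywhere, at 288 ± 10.5 CPM in MPP controls and 426 ± 39.2 CPM in MPP mutants.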

How the data were processed

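RNA from 12 sorted samples was sequenced after low-input amplification that does not keep the strand, per the labels' protocols. STAR, RSEM and mm10 are named in the submitters' processing notes, with no version or setting. The deposited tables hold RSEM's expected counts per gene, and the authors' TPM, per the file headers. The transcript lengths in bases are also as deposited, per the file headers. Between 7.13% and 7.76% of expected counts were fractional, and all 108 values of the members were whole. Genes were matched to RefSeq (23948 of 24054).

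Expected counts were rounded and tested with edgeR 4.0.16 (R 4.3.3) by the quasi-likelihood test, after TMM scaling and filterByExpr (a minimum count of 10 and a total of 15). P-values were adjusted by Benjamini-Hochberg over all genes, with a threshold of 0.05. Each genotype or cell type comparison used its 6 libraries, and the interaction used all 12. CPM use the TMM-scaled totals, and log2 CPM a prior count of 2. Standard errors come from the unshrunk fit. Count ratios have exact 95% conditional binomial intervals, which cover counting error only. Fits were tested on simulated data. DESeq2 1.42.0, other scalings, no filter, leaving out libraries, the replicate block, joint fits and controls with vav-cre alone were alternatives.

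All members were named, together with the called genes of each other list with the 4 smallest p in MPP, genes at 0, nearest neighbours and the 3 genes most like each called member. The members and lists were chosen with earlier results of these data known. Replicate numbers come from the titles. Deviations from the group mean were correlated across genes between mutant and control libraries. Same-numbered LT-HSC libraries had r = 0.108, 0.148 and 0.175, and pairs of different number -0.203 to 0.056. Same-numbered MPP libraries had -0.02, -0.21 and -0.18, and a pair of different number reached 0.21. Centring within groups of 3 constrains these values, and no pairing is read from them. The labels do not say that libraries came from separate fetuses, so the p-values reflect the spread among these libraries, which may be technical. Reads of overlapping or antisense genes cannot be told apart.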

Additional observations from a re-analysis of the deposited data

Results flagged for a closer look

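The deposited tables also give a mean transcript length per gene and library, which weights the annotated transcripts of a gene by their estimated abundance and which the comparisons did not use. For Ddx4 it was 2771 bases in all 6 control libraries. It was 2782.31, 2783.86 and 2811.52 bases in LT-HSC mutants 1 to 3 and 2771, 2840.4 and 2849 bases in MPP mutants 1 to 3, so 5 of 6 mutant libraries lay above every control. It is given because it is a signal outside the main measurement that was above the level of the controls. How many of all genes differ in this way was not counted. The length also moved in single controls of other members. Dazl was at 2964 bases in LT-HSC control 1 and 2913 in the other controls. Tdrd1 was at 5062.53 bases in LT-HSC control 3 and 4887 in the other controls. The difference in Ddx4 was not tested.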

How the results depend on the processing

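With only the controls that carry vav-cre, which leaves 1 MPP control whose variation is assumed to match that of the other groups, the count of members called between MPP genotypes was 0. This was a joint fit, and the joint fit with all controls called 3. Dazl was then at a log2 fold change of 2.38 (adjusted p = 0.241), Tdrd9 at 3.22 (adjusted p = 0.348) and Gtsf1 at 3.60 (adjusted p = 0.209), and the count over all genes was 125 against 2792 in the joint fit with all controls. Leaving out 1 library at a time gave 3 to 4 members called in MPP (4 where Mael was tested and called), 0 to 0 in LT-HSC and for the interaction, 1 to 2 between control cell types (2 without LT-HSC control 1, when Tdrd1 was called lower in MPP, adjusted p = 0.0451) and 0 to 1 between mutant cell types (1 without LT-HSC mutant 2, when Piwil2 was called, adjusted p = 0.0266). The replicate block gave 0, 3, 0, 1 and 0 members called in the 5 comparisons, as without it, and changed 1 call among the genes named, that of Pld6. The block uses the numbers of the titles. The names of the deposited tables number some libraries differently, and a block on those was not run. The causes were not tested. No value changed sign among called results in the alternatives run.

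Over all genes, the LT-HSC count of 54 was 260 by DESeq2, 250 in the joint fit and 13 to 102 with 1 library left out. The MPP count of 4337 was 2792 in the joint fit, 2774 without mutant 2 and 2867 without mutant 3. The interaction count of 50 was 87 without the filter and 339 by DESeq2. Between mutant cell types 2845 became 4729 in the joint fit. In MPP without the filter, 8 other piRNA pathway genes were called, and the partners fell to 3 without control 2 or mutant 2. Depth limits the members outside Ddx4, at 0 to 59 counts per library, and the LT-HSC mutants also differed more among themselves (chi-square per gene 24.8 to 47.2) than the MPP mutants (5.01 to 10.1).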
